A study of Mus musculus with 9 samples.

Results

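The 98 genes described here carry the names of subunits of the oxidative phosphorylation machinery and were followed by RNA sequencing in the lungs of silica-exposed mice. They were found by gene symbol: names of the NADH dehydrogenase families Ndufa, Ndufb, Ndufc, Ndufs and Ndufv, of the succinate dehydrogenase subunits Sdha to Sdhd, of the Uqcr, Cox4 to Cox8 and Atp5 families, and of the protein-coding genes of mitochondrial DNA, which carry the prefix mt-. Of 117 matching entries among 55359 in the table, 13 with pseudogene names were set aside, 6 of which end in -ps and 7 in -ps and a number. Among the remaining 104, 6 did not reach an FPKM (fragments per kilobase of exon, scaled to the library's counted reads) of at least 1 in at least 3 of the 9 libraries. These 6 were Cox8c, Cox7b2, Ndufb11b, Ndufa11b, Ndufs6b and a second entry of Atp5o. The members are thus 85 nuclear genes and 13 mt- genes, of 15459 genes that passed the same filter. GENCODE M21 lists 95 of the members as protein-coding, Cox6c2 and Ndufb4c as processed pseudogenes, and the entry that the table calls Ndufb1 as a long non-coding RNA. The pseudogene entries were called in no comparison, and Ndufb1 was called higher in Silica than in Control (log2 fold change 0.53 ± 0.14 SE, edgeR adjusted p = 0.025). At the filter's edge, the third-highest FPKM was 1.49 for Cox6c2, just inside, and 0.28 for Ndufa11b, just outside.

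Male C57BL/6J mice aged 6 to 8 weeks were instilled through the trachea, and whole lung was taken on day 28. Silica + ATL-III mice received 5 mg of silica and, into the abdomen, 30 mg/kg per day of atractylenolide III (ATL-III, a sesquiterpene lactone from Atractylodes plants). Silica mice received the same dust, whose inhalation causes the fibrotic lung disease silicosis, and Control mice received saline into the trachea. The labels name no injected vehicle for the Silica and Control mice and no group given ATL-III alone. Each group held 20 mice and is represented by 3 libraries of poly(A)-selected RNA, with 16047175 to 17792481 counted reads each. Whether each library came from its own mouse is not stated, so the p-values rest on the differences among these libraries and may reflect technical spread.

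Oxidative phosphorylation passes electrons from NADH and succinate along a chain of complexes in the inner mitochondrial membrane. Complexes I, III and IV pump protons, and complex V, the ATP synthase, uses the proton gradient to make ATP. Complex II is encoded by nuclear genes alone, while complexes I, III, IV and V also hold core subunits encoded by mitochondrial DNA. That DNA is transcribed as long precursors from both strands that are cut into shorter RNAs, whereas each nuclear subunit gene has its own promoter. In lung, surfactant-producing alveolar type 2 cells are among the cells rich in mitochondria. In bulk tissue, fewer cells of a type and less RNA per cell cannot be told apart.

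Complex I holds 37 nuclear and 7 mt- members, complex II holds 4 nuclear members, and complex III holds 8 nuclear members and 1 mt- member. Complex IV, with Ndufa4 and Ndufa4l2 counted there, holds 19 nuclear and 3 mt- members, and complex V holds 17 nuclear and 2 mt- members. The median exonic length in the table was 1495 bases for the nuclear members, 784 bases for the mt- members and 3646 bases for all genes tested. The nuclear members were well expressed, with a median of their mean FPKM of 47.6, against 5.26 for all genes tested, and 80 of the 85 lay above that median. Their mean levels ran from 1.03 FPKM for Cox6c2 to 295 FPKM for Cox6b1.

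Many of these genes have near-identical copies elsewhere in the genome, and that bears on several levels given below. For 5 mt- members, at least 99% of the transcript lies in a chromosome 1 pseudogene copy at 99.7% identity or more. The copies are Gm28661 of mt-Co2, Gm28437 of mt-Co3, Gm10925 of mt-Atp6, Gm28438 of mt-Nd3 and Gm10222 of mt-Nd4l. A stretch of 60 bases from 2 pairs is printed here to show how alike the reads of a member and of its copy would be, from GENCODE M21 transcripts on GRCm38. Capitals mark the single difference over 345 aligned bases of mt-Nd3 (chrM:9459-9518, plus strand) and Gm28438 (chr1:24613060-24613119, minus strand). No base differs over the 681 aligned bases of mt-Co2, of which a stretch at chrM:7323-7382 (plus strand) is shown beside Gm28661 at chr1:24615196-24615255 (minus strand).
mt-Nd3: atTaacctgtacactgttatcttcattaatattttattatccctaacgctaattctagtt
Gm28438: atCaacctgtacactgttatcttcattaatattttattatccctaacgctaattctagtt
mt-Co2: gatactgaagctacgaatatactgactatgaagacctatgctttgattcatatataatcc
Gm28661: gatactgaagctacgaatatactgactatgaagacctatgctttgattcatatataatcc

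Promoters of the nuclear members were looked up because the members were compared as a group. RefSeq windows on GRCm38.p6, from 250 bases before to 50 bases after the start, were found for 68 of the 85 nuclear members (73 windows). The motif of the nuclear respiratory factor NRF1, searched on both strands as GCGCA and GCGC with any 1 base between them, was in 24.7% of these windows and in 4.6% of all 32851 windows of 300 bases. The ETS family motif CCGGAAG, to which the factor GABP binds, was in 23.3% and 8.86%, and the YY1 motif AAGATGGCG in 9.59% and 1.4%. Any of the 3 was in 49.3% of the members' windows and 13.6% of all windows. The median GC content was 57.7% in the members' windows and 52.7% in all windows, and matches of different motifs overlapped in 0 of the 73 windows. These letters are a description of the windows and name no bound site.

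The windows of 3 members with calls in 2 comparisons are printed with matches in capitals. Atp5k (chr5:108434350-108434649, minus strand) held an NRF1 match and an ETS match, the second on the opposite strand. Atp5g3 (chr2:73911277-73911576, minus strand) held an NRF1 match, and Cox5a (chr9:57520982-57521281, plus strand) held none of the 3.
Atp5k: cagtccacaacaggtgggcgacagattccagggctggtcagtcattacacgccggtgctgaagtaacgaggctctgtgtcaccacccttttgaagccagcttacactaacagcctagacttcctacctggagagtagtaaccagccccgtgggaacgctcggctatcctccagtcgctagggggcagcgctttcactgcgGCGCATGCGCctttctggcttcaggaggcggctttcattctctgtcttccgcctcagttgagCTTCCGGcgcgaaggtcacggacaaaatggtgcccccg
Atp5g3: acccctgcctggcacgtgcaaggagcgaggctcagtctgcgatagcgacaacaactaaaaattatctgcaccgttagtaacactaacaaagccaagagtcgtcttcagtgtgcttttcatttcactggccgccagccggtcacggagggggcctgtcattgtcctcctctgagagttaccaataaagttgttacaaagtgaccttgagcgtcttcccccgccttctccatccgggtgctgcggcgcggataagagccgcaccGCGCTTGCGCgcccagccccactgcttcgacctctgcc
Cox5a: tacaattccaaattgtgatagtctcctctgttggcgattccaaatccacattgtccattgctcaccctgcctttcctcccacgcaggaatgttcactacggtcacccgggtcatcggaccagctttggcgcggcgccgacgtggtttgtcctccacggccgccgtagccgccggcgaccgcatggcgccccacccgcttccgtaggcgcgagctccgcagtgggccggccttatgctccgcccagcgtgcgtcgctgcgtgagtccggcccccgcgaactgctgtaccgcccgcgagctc

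The summed FPKM of the 85 nuclear members was 4749, 4482 and 5687 in the 3 Silica + ATL-III libraries, 6803, 5685 and 5970 in the Silica libraries, and 5270, 5153 and 4989 in the Control libraries. Every Silica library was thus above every Control library, while the Silica + ATL-III libraries lay on both sides of the Control values and Silica + ATL-III 3 overlapped the Silica values by a narrow margin. Group means were 4973 ± 633 in Silica + ATL-III, 6153 ± 581 in Silica and 5137 ± 141 in Control (SD, n = 3 each). The summed FPKM of the 13 mt- members was 44020, 36603 and 40998 in Silica + ATL-III, 42968, 53450 and 40457 in Silica, and 42696, 45176 and 42992 in Control. For the mt- members the 3 groups overlapped, and Silica 2 stood above every other library. A sum over chosen members is given as a description, with no test.

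**Figure D1:**
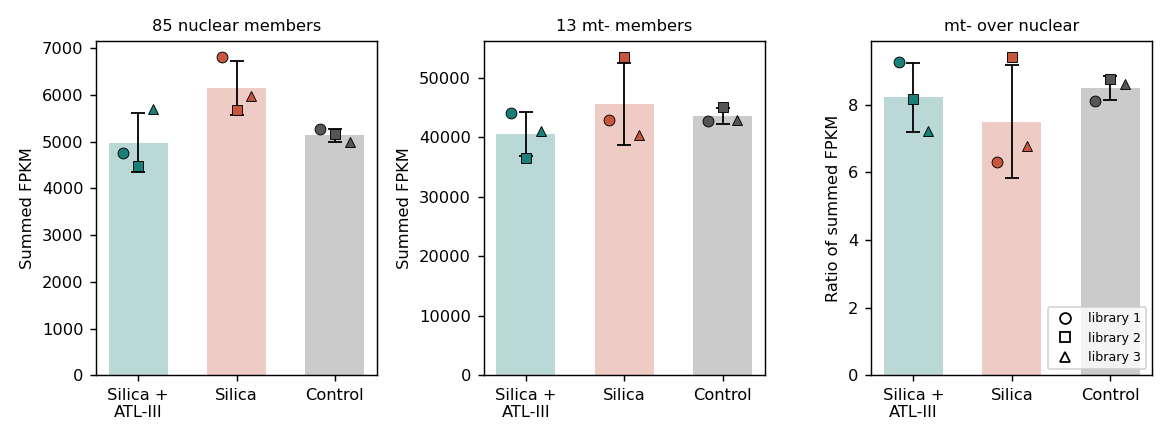
Summed FPKM of the nuclear members (left), of the mt- members (middle) and their ratio (right), with bars at the group means, error bars of 1 SD and 1 point per library (n = 3 each). The Silica libraries, from 5685 to 6803, all lie above the Control libraries in the left panel, while in the middle and right panels the groups overlap.

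The mt- members took 4.57% to 6.54% of the counted reads of a library and the nuclear members 0.675% to 1.02%. The ratio of mt- to nuclear summed FPKM was 9.27, 8.17 and 7.21 in the Silica + ATL-III libraries, 6.32, 9.40 and 6.78 in the Silica libraries, and 8.10, 8.77 and 8.62 in the Control libraries. The Silica libraries held both the lowest and the highest ratio, at a mean of 7.50 ± 1.66, against 8.22 ± 1.03 in Silica + ATL-III and 8.50 ± 0.349 in Control. Without members that have a near-identical copy or an exon overlap, the mean ratio was 6.62 ± 1.56 in Silica. It was then 6.99 ± 0.861 in Silica + ATL-III and 7.5 ± 0.249 in Control. Silica 1 had the highest scaled level of all 9 libraries for 58 of the 85 nuclear members but for 2 of the 13 mt- members. Silica 2 had the highest level for 10 of the 13 mt- members but for 1 nuclear member. Silica + ATL-III 2 had the lowest level for 36 nuclear and 6 mt- members. Silica 1 also stood apart in the summed FPKM of club cell markers (Scgb1a1, Scgb3a2, Cyp2f2), which was 37040 there and 75310 to 97243 in the other 8 libraries. Most of that sum was Scgb1a1, at 34593 FPKM in Silica 1 and 71946 to 94851 FPKM in the others. Cyp2f2 was also lowest in Silica 1 (318 FPKM, against 476 to 776 FPKM). Scgb3a2 did not set it apart (2128 FPKM, against 1508 to 2784 FPKM). Silica + ATL-III 1 stood apart in red blood cell markers, with a summed FPKM of 1134, against 4993 to 8537 in the other 8 libraries. The part of these differences in the members' levels was not tested.

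**Figure D2:**
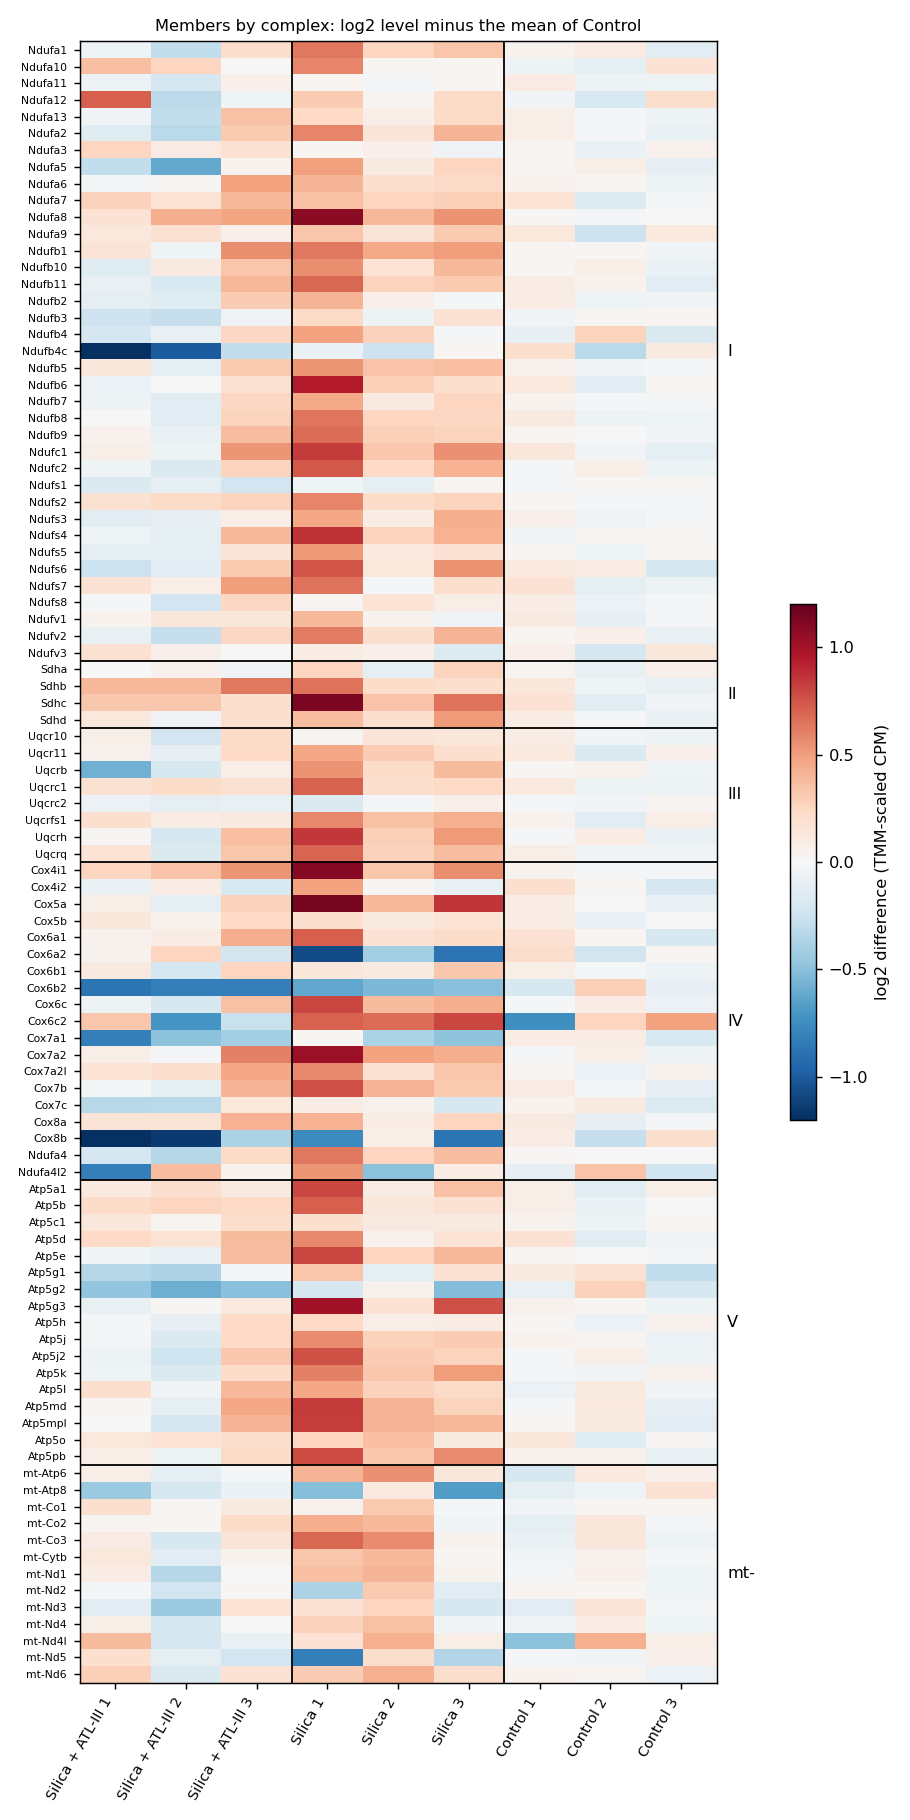
Scaled log2 level of each of the 98 members (1 line each, by complex, with the mt- members at the bottom) in the 9 libraries (across), minus the mean of the 3 Control libraries; colours stop at 1.2 in each direction. The Silica 1 column is the darkest red for most nuclear members, and the median nuclear member lay 0.56, 0.17 and 0.26 above the Control mean in Silica 1, 2 and 3.

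Silica against Control gives the state of the lungs 28 days after the dust. Of the 85 nuclear members, edgeR called 22 higher (25.9%) and 2 lower (2.35%) in Silica, with adjusted p under 0.05. Over all 15459 genes tested, 9.11% were called higher and 7.81% lower. Of the 13 mt- members 0 were called, although 10 had a positive log2 fold change. At an unadjusted p under 0.05, 51 nuclear members were higher and 2 lower, and 3 mt- members were higher (mt-Atp6, mt-Co3 and mt-Nd6), beside 17.4% of all genes in each direction. DESeq2 called 40 nuclear members and 1 mt- member higher, beside 12.1% of all genes. The median log2 fold change was 0.36 for the nuclear members, 0.21 for the mt- members and -0.01 for all genes, and 75 of the 85 nuclear members were positive. In FPKM, all 3 Silica libraries lay above all 3 Control libraries for 44 nuclear members (51.8%), which held for 14.4% of all genes, and for 1 mt- member, and they lay below for 5 nuclear members (5.88%), against 28.9% of all genes. Whether nuclear and mt- members differed in their change was not tested.

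These counts rest on single libraries. Without Silica 1, 5 nuclear members were called higher (3.70% of all genes were) and their median was 0.25, and without Silica 3 the count was 7 (5.10% of all genes). Without Control 1, 2 or 3 it was 4, 2 and 2 (4.37%, 4.55% and 3.42% of all genes), with medians of 0.38, 0.34 and 0.32. Without Control 2 or 3, the members' share was thus below that of all genes. Without Silica 2 or Silica + ATL-III 3 the count was 39 in each case (13.3% and 11.3% of all genes). The median stayed positive in each of these fits. Under scaling to TPM, which moved the median of all genes to -0.20, the nuclear median was 0.18 and the count was 6 higher and 2 lower (4.70% and 22.3% of all genes). With limma on log2(FPKM + 0.5), it was 7 higher and 2 lower (5.30% and 10.5% of all genes). With a trend by transcript length taken out, the count was 13 higher (8.42% of all genes) and the nuclear median 0.24.

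**Figure D3:**
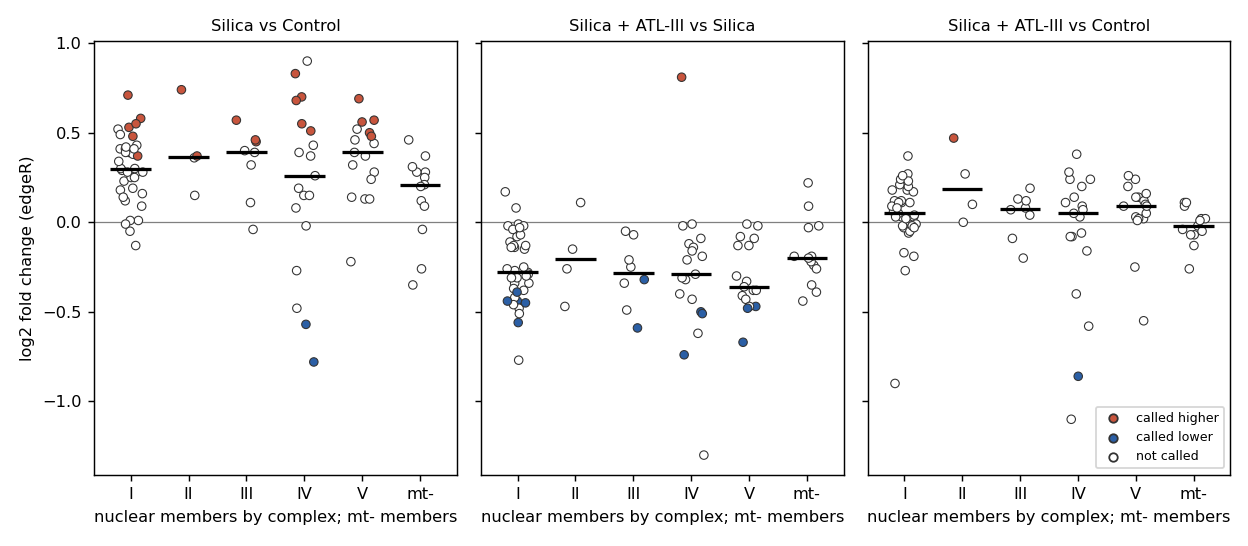
Log2 fold change of every member in the 3 comparisons (edgeR), nuclear members by complex I to V and mt- members, with a line at each median; filled points passed an adjusted p under 0.05. In Silica vs Control most points lie above 0 and 22 are filled red, in Silica + ATL-III vs Silica most lie below 0 and 13 are filled blue, and in Silica + ATL-III vs Control they lie around 0.

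The comparison of Silica + ATL-III with Silica asks how the compound, given on top of the dust, changed these levels, and it shares the Silica libraries with the comparison above. Of the 85 nuclear members, 13 were called lower (15.3%) and 1 higher (1.18%) in Silica + ATL-III, against 10.0% and 11.2% of all genes tested. Again 0 of the 13 mt- members were called, and 11 had a negative log2 fold change. At an unadjusted p under 0.05, 34 nuclear members were lower and 1 higher, and mt-Atp6 and mt-Co3 were lower, beside 17.6% of all genes lower and 17.8% higher. DESeq2 called 21 nuclear and 2 mt- members lower, beside 12.0% of all genes. The median log2 fold change was -0.29 for the nuclear members, -0.20 for the mt- members and -0.00 for all genes, and 81 of 85 nuclear members were negative. In FPKM, all 3 Silica + ATL-III libraries lay below all 3 Silica libraries for 31 nuclear members (36.5%), which held for 19.6% of all genes, and for 1 mt- member, and they lay above for 1 nuclear member, against 15.5% of all genes. The number of nuclear members called lower was 1 without Silica 1, Silica + ATL-III 1 or Silica + ATL-III 2 (5.97%, 6.79% and 5.34% of all genes) and 2 without Silica 3 (5.91%), so that in these 4 fits the members' share was below that of all genes. It was 7 without Control 1 or Control 3 (8.30% and 8.44%), 26 without Silica 2 (12.6%) and 33 without Silica + ATL-III 3 (11.4%). It was 3 when the 6 libraries compared were fitted alone (6.55% of all genes) and 39 under scaling to TPM (17.7%).

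Of the 22 nuclear members called higher in Silica than in Control, 7 (31.8%) were also among the 13 called lower in Silica + ATL-III than in Silica (53.8%). They include Cox5a, Atp5g3, Atp5k, Atp5pb and Uqcrfs1. Since both comparisons use the Silica libraries, a high Silica value enters both, and the shared count is given without a test. The same overlap over all genes was not counted, so these shares have no background and are not a measure of reversal. Set against Control, Silica + ATL-III had 1 nuclear member called higher (Sdhb) and 1 lower (Cox6b2), against 9.14% and 6.71% of all genes. At an unadjusted p under 0.05, 5 nuclear members were higher and 5 lower, beside 15.9% and 14.3% of all genes, and 0 mt- members were on either side, with 0 mt- members called by edgeR and by DESeq2. In FPKM, the Silica + ATL-III libraries lay above all Control libraries for 6 nuclear members, against 12.0% of all genes, and below them for 10 (11.8%), against 30.6%, as they did for mt-Nd2 and mt-Atp8. The median log2 fold change in this comparison was 0.07 for the nuclear and -0.02 for the mt- members. It was -0.24 and -0.33 under scaling to TPM, where the median of all genes was -0.31.

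Complex I, the NADH dehydrogenase, had 7 of 37 nuclear members (18.9%) called higher in Silica than in Control (median log2 fold change 0.30). It had 5 (13.5%) called lower in Silica + ATL-III than in Silica (median -0.28). The counts per complex stand beside 9.11% of all genes called higher in the first of these comparisons and 10.0% called lower in the second. Ndufa8 on chromosome 2, an accessory subunit on the side of the intermembrane space, had 26.7, 32.3 and 32.6 FPKM in Silica + ATL-III, 49.2, 32.6 and 35.3 FPKM in Silica, and 25.7, 25.8 and 25.6 FPKM in Control. All Silica values were above the narrow range of Control, by a log2 fold change of 0.71 ± 0.17 (SE, adjusted p = 0.017), a call that was lost when any of the 3 Control libraries was left out. Ndufa5 on chromosome 6, an accessory subunit of the matrix arm, had 43.1, 34.9 and 54.1 FPKM in Silica + ATL-III, 72.8, 59.8 and 64.7 FPKM in Silica, and 58.4, 60.9 and 53.8 FPKM in Control. It was lower in Silica + ATL-III than in Silica without overlap (log2 fold change -0.56 ± 0.15, adjusted p = 0.024), while Silica and Control overlapped (0.29 ± 0.15, adjusted p = 0.20).

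Ndufs3 on chromosome 2, a core subunit of the matrix arm, had 20.9, 21.7 and 24.2 FPKM in Silica + ATL-III, 31.1, 25.6 and 32.0 FPKM in Silica, and 25.8, 24.6 and 24.8 FPKM in Control. Its log2 fold change was -0.39 ± 0.12 between Silica + ATL-III and Silica (adjusted p = 0.033), and all values in Silica + ATL-III were below those in Silica. A pseudogene copy on chromosome 11 matches 75.7% of its transcript at 97% identity or more, so part of its count is uncertain. The calls of Ndufa5 and Ndufs3 were lost without Silica 1, Silica 3, Silica + ATL-III 1 or Silica + ATL-III 2, and that of Ndufs3 also without Control 1 or 3. The most abundant nuclear member of complex I, Ndufa2 on chromosome 18, had 141, 126 and 192 FPKM in Silica + ATL-III, 230, 181 and 211 FPKM in Silica, and 178, 170 and 161 FPKM in Control. It passed in neither comparison (log2 fold change 0.39 ± 0.16 for Silica vs Control, adjusted p = 0.10, and -0.42 ± 0.16 for Silica + ATL-III vs Silica, adjusted p = 0.077), and 11.5% of its exons overlap those of Tmco6.

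Complex II, succinate dehydrogenase, which also works in the citric acid cycle, had 2 of 4 members called higher in Silica (median 0.36) and 0 called in Silica + ATL-III against Silica. Sdhc on chromosome 1, a membrane anchor, had 14.7, 14.8 and 13.3 FPKM in Silica + ATL-III, 25.3, 15.6 and 18.8 FPKM in Silica, and 14.2, 11.7 and 12.5 FPKM in Control. Silica 1 was far above the rest, and the log2 fold change between Silica and Control was 0.74 ± 0.17 (adjusted p = 0.016). Sdhd on chromosome 9, the other anchor and the most abundant member, had 88.1, 78.6 and 91.3 FPKM in Silica + ATL-III, 101, 96.4 and 117 FPKM in Silica, and 92.2, 87.1 and 82.2 FPKM in Control. The groups Silica and Control did not overlap for Sdhd (log2 fold change 0.37 ± 0.11, adjusted p = 0.042). The call of Sdhc was lost without Control 2 or 3, and that of Sdhd without Silica 1, Silica 3 or any Control library.

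Sdhb on chromosome 4, the iron-sulfur subunit, was called between Silica + ATL-III and Control alone. It had 31.9, 32.0 and 37.2 FPKM in Silica + ATL-III, 37.2, 29.6 and 28.2 FPKM in Silica, and 28.9, 25.7 and 24.8 FPKM in Control. Silica + ATL-III was above Control without overlap (log2 fold change 0.47 ± 0.14, adjusted p = 0.035) and overlapped Silica (0.11 ± 0.13, adjusted p = 0.62). Silica was also higher than Control, by 0.36 ± 0.14, but overlapped it and did not pass (adjusted p = 0.082). The call of Silica + ATL-III against Control was lost without either Silica + ATL-III 2 or 3 and without any single Control library.

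Complex III, the cytochrome bc1 complex, had 3 of 8 nuclear members called higher in Silica (median 0.39) and 2 called lower in Silica + ATL-III than in Silica (median -0.29). Uqcrfs1 on chromosome 13, the Rieske iron-sulfur protein, had 56.0, 52.2 and 52.5 FPKM in Silica + ATL-III, 71.5, 65.1 and 67.2 FPKM in Silica, and 54.4, 49.0 and 56.3 FPKM in Control. Silica libraries were above those of both other groups, by 0.45 ± 0.10 against Control (log2 fold change, adjusted p = 0.014), and Silica + ATL-III differed from Silica by -0.32 ± 0.10 (adjusted p = 0.037). The call against Control was lost when Control 2 was left out, and the call against Silica when any library other than Silica 2 or Control 2 was. Uqcrh on chromosome 4, the hinge protein and the most abundant nuclear member, had 239, 208 and 300 FPKM in Silica + ATL-III, 416, 301 and 343 FPKM in Silica, and 252, 275 and 243 FPKM in Control. It was higher in Silica than in Control (log2 fold change 0.57 ± 0.16, adjusted p = 0.038) and missed the threshold between Silica + ATL-III and Silica (-0.49 ± 0.16, adjusted p = 0.053). Uqcrb, a ubiquinone-binding subunit on chromosome 13, had 103, 136 and 161 FPKM in Silica + ATL-III, 218, 187 and 203 FPKM in Silica, and 166, 174 and 161 FPKM in Control. Its log2 fold change between Silica + ATL-III and Silica was -0.59 ± 0.15 (adjusted p = 0.017), and a pseudogene copy on chromosome 1 matches 62.8% of its transcript. The call of Uqcrh was lost without Silica 1, Silica 3 or any Control library, and that of Uqcrb without Silica 1, Silica 3, Silica + ATL-III 1 or Silica + ATL-III 2.

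Complex IV, cytochrome c oxidase, held the called members with the largest rise and the largest fall in Silica against Control, Cox5a and Cox6a2. Of its 19 nuclear members, 5 were called higher (26.3%) and 2 lower (10.5%) in Silica than in Control (median 0.26), beside 9.11% and 7.81% of all genes. In Silica + ATL-III, 3 were lower (15.8%) and 1 higher (5.26%) than in Silica (median -0.29), beside 10.0% and 11.2%. Cox5a on chromosome 9, a subunit that faces the matrix, had 16.4, 14.5 and 18.8 FPKM in Silica + ATL-III, 33.9, 21.3 and 28.8 FPKM in Silica, and 17.8, 17.0 and 15.9 FPKM in Control. Every Silica library was above every library of the other groups. The log2 fold change was 0.83 ± 0.17 between Silica and Control (adjusted p = 0.010), -0.74 ± 0.17 between Silica + ATL-III and Silica (adjusted p = 0.010) and 0.09 ± 0.17 between Silica + ATL-III and Control (adjusted p = 0.77). Of the 24 members called between Silica and Control and the 14 called between Silica + ATL-III and Silica, only Cox5a kept its call whichever single library was left out, and it did so in both comparisons. Its exons share 12.8% of their bases with Gm26631.

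Cox4i1 on chromosome 8, the ubiquitous form of the largest nuclear subunit, had 135, 143 and 160 FPKM in Silica + ATL-III, 234, 147 and 169 FPKM in Silica, and 124, 122 and 120 FPKM in Control. The 3 Control values were close together and below all others, and the log2 fold change between Silica and Control was 0.70 ± 0.17 (adjusted p = 0.019). Ndufa4 on chromosome 6, once assigned to complex I and now counted in complex IV, had 103, 94.2 and 138 FPKM in Silica + ATL-III, 179, 148 and 156 FPKM in Silica, and 128, 130 and 128 FPKM in Control. It was lower in Silica + ATL-III than in Silica (log2 fold change -0.51 ± 0.15, adjusted p = 0.030), and Silica + ATL-III 3 was the nearest to the Silica values. The call of Cox4i1 was lost without any single Control library, and that of Ndufa4 without Silica 1, Silica 3, Silica + ATL-III 1 or Silica + ATL-III 2. The most abundant nuclear member of all, Cox6b1 on chromosome 7, had 291, 234 and 319 FPKM in Silica + ATL-III, 290, 302 and 342 FPKM in Silica, and 303, 293 and 279 FPKM in Control. Its groups overlapped in every comparison.

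Several complex IV subunits exist as a common form and a form of particular tissues, and the list of tissue forms held 6 tested genes. In mouse, Cox6a2, Cox7a1 and Cox8b are the forms of heart and skeletal muscle, Cox6b2 that of testis, Cox4i2 is highest in lung, and Ndufa4l2 is induced by hypoxia. Cox6a2 on chromosome 7 had 25.3, 29.5 and 20.9 FPKM in Silica + ATL-III, 11.3, 19.2 and 13.4 FPKM in Silica, and 30.5, 23.0 and 27.0 FPKM in Control. The Silica values were below all others, by a log2 fold change of -0.78 ± 0.19 against Control (adjusted p = 0.021), and Silica + ATL-III was higher than Silica by 0.81 ± 0.19 (adjusted p = 0.012). Silica 1, the highest library for most nuclear members, was the lowest here. The call against Control was lost without Silica 1, Silica 3, Control 1 or Control 3, the call against Silica without Silica 3 or Silica + ATL-III 2, and 10.3% of the exon bases of Cox6a2 overlap those of Itgad.

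Cox6b2 on chromosome 7 had 9.09, 9.49 and 9.34 FPKM in Silica + ATL-III, 10.6, 12.0 and 12.0 FPKM in Silica, and 15.8, 22.5 and 16.9 FPKM in Control. The 3 groups did not overlap. The log2 fold change was -0.57 ± 0.14 for Silica against Control (adjusted p = 0.022), -0.86 ± 0.15 for Silica + ATL-III against Control (adjusted p = 0.0019) and -0.29 ± 0.15 for Silica + ATL-III against Silica (adjusted p = 0.18). The call of Silica + ATL-III against Control held whichever library was left out, and that of Silica against Control was lost without Silica 1, Silica 3, Control 2 or Control 3. Cox7a1 had 5.97, 7.59 and 7.92 FPKM in Silica + ATL-III, 10.6, 8.56 and 7.77 FPKM in Silica, and 12.3, 12.5 and 10.3 FPKM in Control. Cox8b had 3.07, 6.47 and 11.1 FPKM in Silica + ATL-III, 8.30, 16.2 and 7.96 FPKM in Silica, and 16.7, 13.2 and 18.2 FPKM in Control. Both were lower in every Silica + ATL-III library than in every Control library, but neither passed (log2 fold change -0.58 ± 0.21 for Cox7a1 and -1.10 ± 0.40 for Cox8b, adjusted p = 0.086 each). Cox4i2 ran from 18.8 to 29.5 FPKM and Ndufa4l2 from 1.18 to 3.10 FPKM over the 9 libraries, and neither was called in any comparison.

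**Figure D4:**
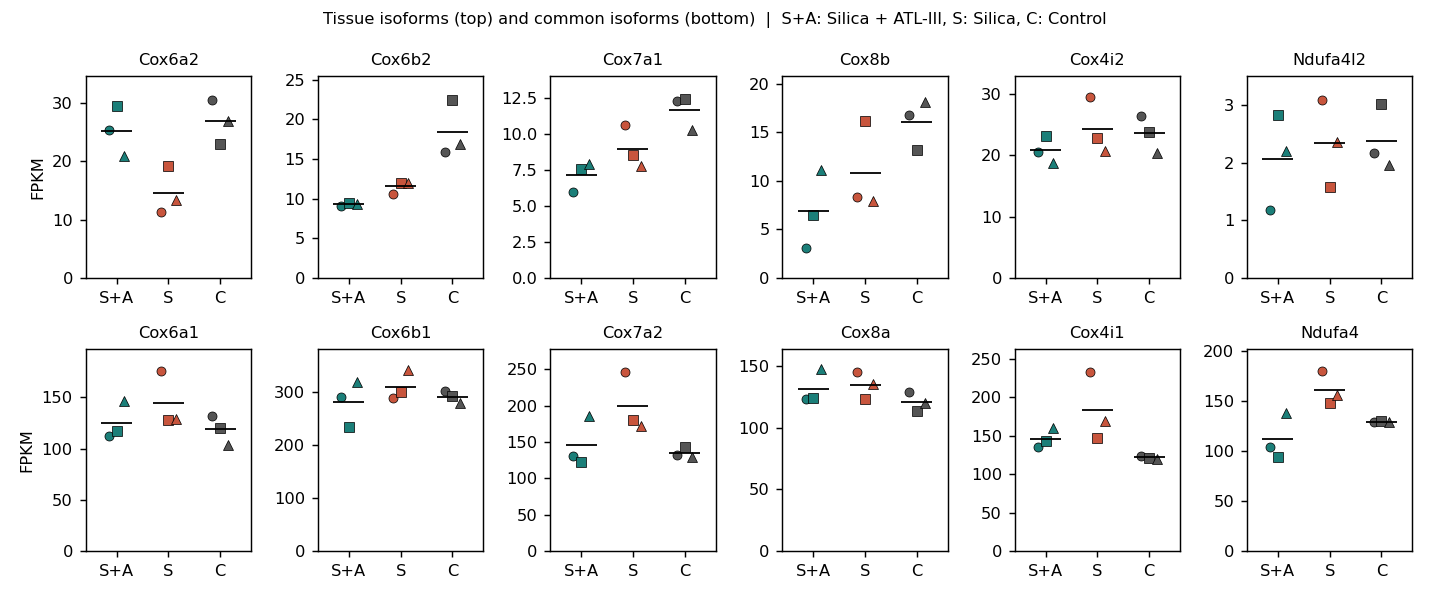
FPKM in each library (points; circle, square and triangle for library 1, 2 and 3) and group means (lines) of 6 tissue isoforms (top) and of the matching common isoforms (bottom). Cox6a2 is lowest in Silica, at 11.3 to 19.2 FPKM, while Cox6b2, Cox7a1 and Cox8b have their highest group mean in Control, and Cox6a1, Cox7a2, Cox4i1 and Ndufa4 have their highest group mean in Silica.

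The summed markers of heart and skeletal muscle were lower in both silica-treated groups than in Control. Of 11 tested markers, among them Myh6 and Actc1, 8 were called lower in Silica than in Control (median log2 fold change -0.80), 9 lower in Silica + ATL-III than in Control (median -1.21), and 1 higher in Silica + ATL-III than in Silica. These counts stand beside 7.81%, 6.71% and 11.2% of all genes. The markers' summed FPKM was 59.0 to 100 in Silica + ATL-III, 82.9 to 109 in Silica and 167 to 190 in Control. Myh6 had 1.65, 3.97 and 1.76 FPKM in Silica + ATL-III, 1.36, 3.13 and 1.65 FPKM in Silica, and 6.53, 6.37 and 8.01 FPKM in Control. Cox6a2 had a log2 fold change of 0.03 ± 0.19 between Silica + ATL-III and Control (adjusted p = 0.94), and Cox7a1 and Cox8b passed in no comparison. The part of muscle tissue in the isoforms' levels was not tested.

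Complex V, the ATP synthase, had 5 of 17 nuclear members called higher in Silica (median 0.39) and 3 called lower in Silica + ATL-III than in Silica (median -0.36). Atp5g3 on chromosome 2, one of the genes for the ring of c subunits, had 39.5, 42.6 and 45.3 FPKM in Silica + ATL-III, 82.9, 49.2 and 72.9 FPKM in Silica, and 46.8, 46.3 and 43.6 FPKM in Control. Silica 2 lay just above Control and the other Silica libraries far above it, and the log2 fold change was 0.69 ± 0.17 against Control (adjusted p = 0.021) and -0.67 ± 0.17 for Silica + ATL-III against Silica (adjusted p = 0.017). Atp5k on chromosome 5, the subunit e that helps synthase dimers to form, had 38.2, 35.1 and 45.4 FPKM in Silica + ATL-III, 58.5, 51.3 and 56.8 FPKM in Silica, and 42.2, 41.8 and 44.3 FPKM in Control. The Silica libraries were above all others, by 0.48 ± 0.12 against Control (adjusted p = 0.025), and Silica + ATL-III differed from Silica by -0.47 ± 0.12 (adjusted p = 0.020). The calls of Atp5g3 and Atp5k were lost without Silica 1 or Silica 3 in both comparisons, without any Control library in the first, and without Silica + ATL-III 1 or 2 in the second.

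Atp5pb on chromosome 3, the subunit b of the stalk that holds the synthase head, had 59.5, 54.0 and 65.3 FPKM in Silica + ATL-III, 94.2, 73.1 and 84.9 FPKM in Silica, and 62.0, 63.5 and 57.6 FPKM in Control. Its log2 fold change was 0.57 ± 0.13 between Silica and Control (adjusted p = 0.016) and -0.48 ± 0.13 between Silica + ATL-III and Silica (adjusted p = 0.022). The call against Control was lost without Silica 1 or Control 3, and that against Silica without Silica 1, Silica 3, Silica + ATL-III 1 or Silica + ATL-III 2. A pseudogene copy on chromosome 11 matches 43.4% of its transcript. Atp5h on chromosome 11, the subunit d and the most abundant nuclear member of the complex, had 119, 112 and 141 FPKM in Silica + ATL-III, 138, 132 and 130 FPKM in Silica, and 130, 125 and 135 FPKM in Control. Its groups overlapped in all comparisons, and copies match 80.1% of its transcript.

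Of the 85 nuclear members, 28 have a copy or an exon overlap over at least 10% of their bases. Of the other 57, 18 were called higher (31.6%) and 1 lower (1.75%) in Silica than in Control (median 0.37), beside 9.11% and 7.81% of all genes. In Silica + ATL-III, 9 were called lower than in Silica (15.8%, median -0.29), beside 10.0% of all genes. Of the promoter windows of members called higher in Silica, 8 of 16 held any of the 3 motifs (50.0%), beside 49.3% of the windows of all nuclear members.

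The mt- members fell into 2 ranges of level. mt-Co1, mt-Cytb, mt-Nd1, mt-Nd2, mt-Nd4, mt-Nd5 and mt-Nd6 had 979 to 15257 FPKM in single libraries. mt-Co2, mt-Co3, mt-Atp6, mt-Nd3, mt-Nd4l and mt-Atp8 had 3.08 to 146 FPKM. The 5 members with a copy over at least 99% of their transcript are all in the low range, together with mt-Atp8, which shares 21.1% of its bases with mt-Atp6. The sources used here do not say how reads that match several places were counted. The 5 copies were themselves counted, for example Gm28661 at 779 to 1128 reads and Gm28437 at 353 to 788 reads per library. So the levels of these 6 members are uncertain, and mt-Nd4 (63.6% of its transcript in a copy on chromosome 1) and mt-Co1 (100% in a copy on chromosome 2, at 97.6% identity) may be too. The other 5 mt- members had a median log2 fold change of 0.25 for Silica against Control, with 3 positive and 2 negative. For Silica + ATL-III against Silica their median was -0.20, with 1 positive and 4 negative. The 8 with a copy or overlap had medians of 0.20 and -0.21, with 7 positive in the first and 7 negative in the second.

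**Figure D5:**
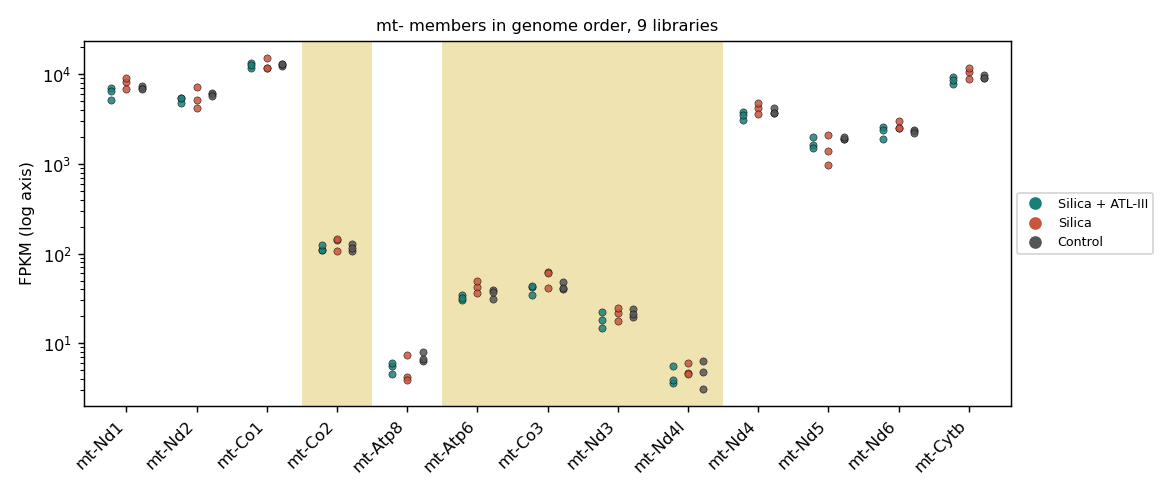
FPKM of the 13 mt- members in each of the 9 libraries, on a log axis, in their order along mitochondrial DNA. Shading marks the 5 members with at least 99% of their transcript in a near-identical copy on chromosome 1, none of them above 146 FPKM.

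Among the complex I subunits of mitochondrial DNA, mt-Nd1 had 7024, 5242 and 6504 FPKM in Silica + ATL-III, 8281, 9133 and 6884 FPKM in Silica, and 7018, 7511 and 6914 FPKM in Control. mt-Nd2 had 5509, 4765 and 5516 FPKM in Silica + ATL-III, 4193, 7152 and 5117 FPKM in Silica, and 6109, 6152 and 5806 FPKM in Control. mt-Nd5 had 2012, 1633 and 1497 FPKM in Silica + ATL-III, 979, 2133 and 1413 FPKM in Silica, and 1878, 1884 and 1993 FPKM in Control. For mt-Nd2 and mt-Nd5, Silica 1 was the lowest library of all and Silica 2 the highest, so the Silica libraries spread wider than the other groups. mt-Nd4 had 3756, 3109 and 3540 FPKM in Silica + ATL-III, 4257, 4776 and 3569 FPKM in Silica, and 3749, 4184 and 3748 FPKM in Control. mt-Nd6, the only subunit encoded on the other strand of mitochondrial DNA, had 2607, 1895 and 2365 FPKM in Silica + ATL-III, 2552, 2985 and 2499 FPKM in Silica, and 2344, 2376 and 2195 FPKM in Control. It was the mt- member whose Silica libraries all lay above the Control libraries, by a log2 fold change of 0.31 ± 0.14 that did not pass (adjusted p = 0.13). The low-range members mt-Nd3 and mt-Nd4l had 14.6 to 25.0 FPKM and 3.08 to 6.29 FPKM, and their groups overlapped.

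mt-Cytb, the mt- subunit of complex III, had 9389, 7857 and 8735 FPKM in Silica + ATL-III, 10510, 11720 and 8849 FPKM in Silica, and 9005, 9733 and 9169 FPKM in Control. mt-Co1, the catalytic core of complex IV and the most abundant member, had 13510, 11905 and 12610 FPKM in Silica + ATL-III, 11920, 15257 and 11915 FPKM in Silica, and 12388, 13082 and 12941 FPKM in Control. Both overlapped between groups, with log2 fold changes of 0.25 ± 0.16 and 0.12 ± 0.17 for Silica against Control. mt-Co3 had 42.4, 34.7 and 43.6 FPKM in Silica + ATL-III, 62.5, 61.4 and 41.6 FPKM in Silica, and 40.2, 47.7 and 41.3 FPKM in Control. mt-Atp6, the proton channel subunit of complex V, had 34.6, 30.3 and 32.3 FPKM in Silica + ATL-III, 42.6, 50.0 and 36.6 FPKM in Silica, and 30.9, 39.0 and 37.1 FPKM in Control. These had the smallest adjusted p among the mt- members, at 0.069 and 0.075 for Silica against Control (log2 fold change 0.46 ± 0.16 and 0.37 ± 0.13). For Silica + ATL-III against Silica, the adjusted p was 0.074 for mt-Co3 and 0.058 for mt-Atp6 (log2 fold change -0.44 ± 0.16 and -0.39 ± 0.13). mt-Co2 and mt-Atp8 ran from 105 to 146 FPKM and from 3.86 to 7.87 FPKM, with overlapping groups in Silica and Control.

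The mitochondrial ribosomal RNAs, which carry only short poly(A) tails, did not follow the mt- members. mt-Rnr2 had 1576, 1725 and 2869 FPKM in Silica + ATL-III, 1386, 1258 and 908 FPKM in Silica, and 1179, 1308 and 1580 FPKM in Control. It was higher in Silica + ATL-III than in Silica (log2 fold change 0.82 ± 0.24, adjusted p = 0.033), where the median of the mt- members was -0.20. mt-Rnr1 passed in no comparison (0.46 ± 0.21 for Silica + ATL-III against Silica, adjusted p = 0.13). The difference between ribosomal RNAs and mt- members was not tested.

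The rest of the pathway was described from lists. Calls lost when a library was left out are given for the members and not for genes outside them. The calls of list genes are therefore not shown to be firmer than those of the members. For all of these lists, the counts stand beside 9.11% of all genes called higher and 7.81% lower in Silica than in Control. Over all genes, 11.2% were called higher and 10.0% lower in Silica + ATL-III than in Silica. Against Control, 9.14% of all genes were called higher and 6.71% lower in Silica + ATL-III. Of 45 tested assembly factors, 6 were called higher and 0 lower in Silica than in Control (median 0.16), and 0 higher and 4 lower in Silica + ATL-III than in Silica (median -0.12). Sdhaf4, which helps to assemble complex II, had 18.8, 17.8 and 24.7 FPKM in Silica + ATL-III, 39.1, 30.4 and 32.7 FPKM in Silica, and 24.5, 24.2 and 23.3 FPKM in Control. Its Silica libraries were above all others, with log2 fold changes of 0.61 ± 0.15 against Control (adjusted p = 0.023) and -0.72 ± 0.16 for Silica + ATL-III against Silica (adjusted p = 0.0074). Coa4, a factor of complex IV, was higher than in Control in Silica (0.70 ± 0.18, adjusted p = 0.023) and in Silica + ATL-III (0.64 ± 0.18, adjusted p = 0.029). Ttc19, a factor of complex III, was lower in Silica + ATL-III than in Silica (-0.50 ± 0.10, adjusted p = 0.0055) and than in Control (-0.49 ± 0.10, adjusted p = 0.0061).

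Of 7 tested subunits and carriers outside the symbol patterns, 1 was called higher in Silica, Atpif1, the inhibitor of the ATP synthase. It had 67.3, 54.5 and 83.2 FPKM in Silica + ATL-III, 117, 93.2 and 108 FPKM in Silica, and 80.1, 83.6 and 75.0 FPKM in Control, and its log2 fold change was 0.52 ± 0.15 for Silica against Control (adjusted p = 0.040) and -0.62 ± 0.15 for Silica + ATL-III against Silica (adjusted p = 0.016). The ADP/ATP carrier Slc25a5 was higher in Silica + ATL-III than in Control (0.60 ± 0.12, adjusted p = 0.0058). Of 18 genes of the citric acid cycle and pyruvate dehydrogenase, 1 was called higher in Silica than in Control (Pcx, pyruvate carboxylase, 0.61 ± 0.17, adjusted p = 0.031), with a list median of 0.19. In Silica + ATL-III against Silica, 1 was lower (Dlat, -0.43 ± 0.12, adjusted p = 0.020) and 1 higher (Idh3g, 0.31 ± 0.10, adjusted p = 0.040).

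Of 15 fatty acid oxidation genes, 2 were called higher in Silica than in Control (Etfa and Hadh) and 3 lower in Silica + ATL-III than in Silica (Decr1, Hadh and Etfa). Of 30 genes of mitochondrial DNA transcription and RNA handling, 2 were called higher (Slirp and Trmt10c) and 1 lower (Polg) in Silica than in Control. Polg, the polymerase that copies mitochondrial DNA, had 7.11, 7.26 and 7.07 FPKM in Silica + ATL-III, 5.38, 6.32 and 6.12 FPKM in Silica, and 8.12, 8.08 and 8.01 FPKM in Control (log2 fold change -0.34 ± 0.09 for Silica against Control, adjusted p = 0.021, and 0.29 ± 0.09 for Silica + ATL-III against Silica, adjusted p = 0.032). Trmt10c, a subunit of mitochondrial RNase P, was lower in Silica + ATL-III than in Silica (-0.55 ± 0.15, adjusted p = 0.021). Of 13 tested regulators of mitochondrial biogenesis, 0 were called higher and 1 lower in Silica than in Control, Gabpb2 (-0.53 ± 0.12, adjusted p = 0.014). The deacetylase Sirt3 and the receptor Ppard were higher in Silica + ATL-III than in Silica (0.50 ± 0.12 and 0.60 ± 0.19, adjusted p = 0.015 and 0.039), and against Control Ppard was called higher and Prkaa2 and Pprc1 lower.

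Markers of other cell types changed in the same comparisons. Their counts stand beside 9.11% of all genes called higher and 7.81% called lower in Silica than in Control. The shares of all genes were 11.2% and 10.0% in Silica + ATL-III against Silica, and 9.14% and 6.71% in Silica + ATL-III against Control. Of 8 macrophage markers, 8 were called higher in Silica than in Control, and 5 lower in Silica + ATL-III than in Silica, with summed FPKM of 1383 to 2378 in Silica + ATL-III, 1386 to 2249 in Silica and 539 to 694 in Control. Most of these sums was Chil3, at 1177 to 2198 FPKM in Silica + ATL-III and 1053 to 1711 FPKM in Silica, which is not among the 5. Of the 5, Ctsk had 62.7 to 92.8 FPKM in Silica + ATL-III and 203 to 459 FPKM in Silica. Of 8 alveolar type 2 markers, 4 were called higher in Silica than in Control and 3 lower in Silica + ATL-III than in Silica, with sums of 23617 to 31048 FPKM in Silica + ATL-III, 28616 to 34389 FPKM in Silica and 22246 to 30616 FPKM in Control. Most of these sums was Sftpc, which was not called. All 10 neutrophil markers were called higher in Silica + ATL-III than in Silica, with sums of 29764 to 45219 FPKM in Silica + ATL-III, 731 to 4499 FPKM in Silica and 555 to 3875 FPKM in Control. Of 4 smooth muscle markers, 4 were called lower in Silica than in Control (median log2 fold change -0.82), and Cnn1 and Tagln were called higher in Silica + ATL-III than in Silica (list median 0.28). Of 4 B cell markers, 4 were called lower in Silica + ATL-III than in Silica and than in Control, with sums of 6.43 to 18.2 FPKM in Silica + ATL-III, 32.4 to 57.1 FPKM in Silica and 24.8 to 59.0 FPKM in Control. Of 5 fibroblast markers, 3 were lower in Silica + ATL-III than in Silica and than in Control, and 2 were lower in Silica than in Control. Both tested adipose markers, Cidec and Adipoq, were lower in Silica than in Control. Of 6 endothelial markers, 2 were lower in Silica than in Control and 3 higher in Silica + ATL-III than in Silica. The part of each cell type in the members' levels was not tested.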

How the data were processed

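Whole-lung poly(A) RNA was sequenced in 9 libraries. The deposited table gives raw read counts per gene and FPKM, both made by the authors, per the file headers. The submitters' processing notes name cutadapt 1.9.1, HISAT2 2.0.1, HTSeq 0.6.1 and mm10, with no roles. The sources used here do not say how strand and multi-mapping were handled, so antisense, overlapping and copied genes are uncertain. Columns named A, S and C with a number were read as Silica + ATL-III, Silica and Control. The labels do not state these letters. A was taken as the initial of ATL-III, which only that group received, S as that of Silica and C as that of Control. Recomputing FPKM from counts, lengths and column totals gave differences of at most 0.005.

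Counts of the 15459 genes that reached an FPKM of 1 in 3 or more libraries were scaled by TMM and tested with edgeR 4.0.16 (R 4.3.3), by its quasi-likelihood test on 3 group means over all 9 libraries. Fold changes are group over group as named, on the log2 scale, with SE as the size of the fold change over the square root of F. P-values were adjusted by Benjamini-Hochberg over all genes tested, and calls were made at 0.05. The steps were tested on simulated counts, drawn independently for each gene with changes set in some genes. That tests the steps and not the calls made here. Alternatives were DESeq2 1.42.0, limma 3.58.1 on log2(FPKM + pseudocount), other scalings and filters, a replicate block, and leaving out each library. Copies were searched with BLAST 2.17.0 on GENCODE M21 (at least 97% identity over at least 50 bases, counted from 10% of the transcript), and exon overlaps were taken from the same annotation. The positions in the table could not be matched to that build, so genes are given by chromosome.

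Named members were the 8 called genes with the smallest p in each direction and comparison, the most abundant of each complex, all mt- members, the tissue isoforms, and the 2 called genes with the smallest p per pathway list and comparison. The members and lists were chosen with earlier results of these data known.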

Additional observations from a re-analysis of the deposited data

How the results depend on the processing

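In Silica vs Control and in Silica + ATL-III vs Silica, the nuclear median kept its sign in every fit, while the calls moved widely. In the second of these it ran from -0.17 without Silica 1 to -0.41 under TPM. In Silica + ATL-III vs Control the sign of the nuclear median changed. It was 0.07 in the main fit, -0.05 with library totals, -0.06 with limma on log2(FPKM + 0.5) and -0.24 under TPM. The median of all genes there was -0.01, -0.13, -0.12 and -0.31. With DESeq2, 40 nuclear members were called higher in Silica than in Control (edgeR 22), beside 12.1% of all genes. It called 21 lower in Silica + ATL-III than in Silica (edgeR 13), beside 12.0%. In Silica + ATL-III against Control it called 2 lower (edgeR 1), beside 8.01%. By DESeq2, 1 mt- member was higher in the first comparison and 2 mt- members lower in the second. Testing all genes with a count gave 42, 25 and 2 (6.28%, 6.23% and 4.37% of all genes). There, 2 were higher in the third (6.02%), and 1 mt- member was called in each of the first and second. Scaling to library totals gave 10, 20 and 4 (6.43%, 11.7% and 13.1% of all genes), and 0 higher in the third (6.9%). Scaling to TPM gave 6, 39 and 15 (4.7%, 17.7% and 34.5% of all genes), so in the third the members' share was below that of all genes. TPM also gave 0 higher in the third (5.04%) and 2 mt- members lower in the second. Under TPM the medians were 0.18 and -0.24 (nuclear) and 0.02 and -0.33 (mt-) for Silica and Silica + ATL-III against Control. limma on log2(FPKM + 0.5), with 0.1 or 1 in place of 0.5, gave 7 higher in the first comparison in each case, and 0 higher and 5 lower in the third. With 0.5, 5.3% of all genes were higher in the first, and 6.2% higher and 11.4% lower in the third. Taking out a length trend gave 13 higher in the first (8.42% of all genes). Fitting only the 6 libraries compared gave 34 higher in the first, 3 lower in the second and 3 higher in the third (10.1%, 6.55% and 10.6% of all genes). Upper quartile scaling, chosen after seeing the data, gave 20 nuclear members and 1 mt- member lower in the second (13% of all genes). It gave 0 higher in the third (8.04%).

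Leaving out each library gave 2 to 39 nuclear members higher and 0 to 2 lower in the first comparison, 0 to 1 higher and 1 to 33 lower in the second, and 0 to 3 higher and 1 to 2 lower in the third. Over all genes, the same fits called 3.42% to 13.3% higher and 1.9% to 12.2% lower in the first. The shares were 7.1% to 12.5% and 5.34% to 12.6% in the second, and 5.76% to 11% and 3.77% to 7.85% in the third. For mt- members, leaving out each library gave 0 to 1 higher and 0 to 1 lower in the first and 0 to 2 lower in the second. The causes of these moves were not tested. Of 3036 recomputed values for 138 single-gene results, 2594 kept their direction and their side of the threshold, 287 no longer passed, 68 newly passed, 87 uncalled values moved, and 0 called values reversed.

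With the replicate number as a block, 12 nuclear members were called higher in the first comparison and 9 lower in the second (7.43% and 8.55% of all genes). The numbers did not pair the libraries: correlations of same-numbered libraries ran from -0.133 to 0.12, and those of other pairs from -0.136 to 0.126.

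Depth was similar in all libraries, at 16047175 to 17792481 reads. With 3 libraries a group, a member that missed the threshold is not shown to be the same in both groups. Levels of members with copies are uncertain, and whole-lung RNA mixes many cell types.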

Other observations

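The mitochondrial ribosome translates the mt- transcripts, and its nuclear protein genes were looked at after the data were seen. The 82 tested Mrpl and Mrps entries were taken by symbol. They include the pseudogene names Mrps36-ps1, Mrps36-ps2, Mrpl27-ps, Mrpl23-ps1 and Mrpl48-ps, none of which was called and which the counts, medians and sums here keep. Of the 82, 16 were called higher and 0 lower in Silica than in Control, beside 9.11% and 7.81% of all genes, with a median log2 fold change of 0.32. In Silica + ATL-III against Silica, 0 were called higher and 5 lower (median -0.21), a smaller share than the 10.0% of all genes called lower, and in Silica + ATL-III against Control 1 was called higher, Mrpl33 (median 0.10). Their summed FPKM ran from 895 to 1113 in Silica + ATL-III, from 1075 to 1219 in Silica and from 965 to 1022 in Control, so that all Silica libraries lay above all Control libraries. Mrpl17, a protein of the large subunit, had the smallest p in the first comparison, with log2 fold changes of 0.51 ± 0.11 (adjusted p = 0.014) for Silica against Control and -0.43 ± 0.11 (adjusted p = 0.019) for Silica + ATL-III against Silica.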
